A study of Mus musculus with 4 samples.

Results

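The core of MHC class I antigen presentation was followed here as 10 genes, taken as the rows of the raw count table whose symbol was H2-K1, H2-D1, H2-T23, H2-M3, B2m, Tap1, Tap2, Tapbp, Erap1 or Nlrc5. All 10 were found among 27179 genes of the table, and all 10 had enough counts to be tested. The cells were plasmacytoid dendritic cells (pDCs) of C57BL/6 mice, grown from bone marrow precursors in Flt3 ligand over 8 days and exposed to imiquimod, a ligand of the receptor TLR7, at 1 µg/ml for 24 h. They were sorted by SiglecH and CD11b and parted by BFP, a blue fluorescent reporter of the chemokine gene Cxcl10. Each side gave 2 libraries, called here N1 and N2 (BFP-negative, replicates 1 and 2) and P1 and P2 (BFP-positive, replicates 1 and 2). Both groups had the same strain, culture and imiquimod exposure, and no unstimulated library was analysed here. The labels do not settle which side of the CD11b gate was kept, and a population label calls the BFP-negative cells CXCL10-positive while the series' design text calls them CXCL10-negative, so groups were taken from the BFP part of the titles. Libraries with the same replicate number carry a shared code in their titles that the labels do not explain, and nothing in the labels says whether the 2 libraries of a group came from separate animals or cultures, so p-values measure only the spread between these libraries, which may be technical.

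Class I molecules display peptides from proteins made inside the cell to CD8 T cells. Each is a heavy chain held by the light chain beta-2 microglobulin. Peptides cut by the proteasome are pumped into the endoplasmic reticulum by the transporter TAP, trimmed there, and loaded with the help of tapasin. Transcription of many of these genes is driven by the transactivator NLRC5 through a conserved promoter module of S, X and Y boxes, and also by interferons and NF-kB. Plasmacytoid dendritic cells are known mainly as producers of type I interferon, and their part in presenting antigen has been debated.

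The 4 libraries held 11868254 to 12570117 counts. Cxcl10, the gene behind the sort, had 3 and 19 counts in N1 and N2 and 149 and 154 in P1 and P2; this gene chose the groups and only checks their labels. The defining pDC genes were present in both groups, with Siglech at 613 ± 2.69 and 803 ± 25.04 CPM (TMM-scaled read counts relative to the library total; mean ± SD, n = 2, BFP-negative first, as in all values below). Of 10 pDC markers, the BFP-positive side had 2 called higher, Runx2 (log2 fold change 0.85) and Siglech (0.39), itself used in the sort. The 4 called lower were Ccr9 (-0.89), Cox6a2 (-0.99), Klk1 (-1.43) and Ly6d (-0.55). The summed level of all 10 was 21444 to 25523 CPM in the BFP-negative and 16694 to 17597 CPM in the BFP-positive libraries. Most of that sum was Ly6d, and the other 9 markers summed to 4155 and 4576 CPM in N1 and N2 and 3985 and 4123 CPM in P1 and P2. Markers of other cells also differed, with 4 of 10 tested conventional dendritic cell markers called higher and 1 lower, and their summed level at 380 to 460 CPM in the BFP-negative and 675 to 828 CPM in the BFP-positive libraries. The monocyte and macrophage markers summed to 98.8 to 117 and 344 to 356 CPM, with 5 of 8 tested called higher and 1 lower, while C1qa and Mertk had no count in any library, below the floor of 3 counts or 0.239 to 0.253 CPM. C1qb and C1qc of the same list were detected in every library, C1qb with 146 and 107 counts in N1 and N2 against 65 and 77 in P1 and P2, and C1qc with 60 and 52 against 41 and 54, and neither passed the test. The B cell markers summed to 121 to 123 and 94.7 to 99.6 CPM, with 2 of 4 tested called lower. Markers of T and NK cells summed to 1431 to 1505 and 1047 to 1115 CPM, nearly all of it Cd8a, which was called lower, and Cd3g was at 0 in every library. Of the NK and cytotoxic markers, Ncr1 (8 and 22 counts) and Gzmb (16 and 4 counts) were seen in P1 and P2 and at 0 in N1 and N2, too low to be tested, and Klrb1c had 133 and 40 against 28 and 67 counts. For comparison with these marker counts, 7.6% of all genes tested were called higher and 3.51% lower. The part of these other cells in the results below was not tested.

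Promoter sequences show what several class I genes share ahead of an annotated start. RefSeq windows on GRCm38.p6, from 250 bases before to 50 bases after the annotated start, were matched for 8 of the 10 genes. In 4 of them, H2-K1, H2-D1, H2-M3 and B2m, the letters TGACG of a CRE-like site, as in the X box, were followed by ATTGG, the reverse complement of a CCAAT or Y box, with exactly 25 bases between the starts of both. Such a pair, read on the gene's strand with starts 20 to 35 bases apart, stood in 0.307% of all 32851 windows. It was chosen after the sequences had been seen. The stretches that hold the pair are shown with TGACG and ATTGG as well as the interferon and NF-kB type matches in capitals, at chr17:34000349-34000468 on the minus strand for H2-K1, and on the plus strand at chr17:35262913-35263032 for H2-D1, chr17:37270108-37270227 for H2-M3 and chr2:122147529-122147648 for B2m, all 5′ to 3′. The H2-D1 stretch lies before the RefSeq start but inside the first exon of a longer GENCODE transcript. H2-K1 has 2 RefSeq starts, of which the first listed was used. Its stretch lies before that start but inside the gene's outermost bounds.
H2-K1: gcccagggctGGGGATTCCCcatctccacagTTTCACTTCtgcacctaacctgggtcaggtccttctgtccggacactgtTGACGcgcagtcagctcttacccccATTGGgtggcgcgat
H2-D1: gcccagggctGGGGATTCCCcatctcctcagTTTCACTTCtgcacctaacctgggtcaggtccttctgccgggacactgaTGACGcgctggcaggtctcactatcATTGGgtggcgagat
H2-M3: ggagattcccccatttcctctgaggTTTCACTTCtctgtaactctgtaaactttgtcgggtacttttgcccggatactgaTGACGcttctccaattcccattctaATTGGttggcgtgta
B2m: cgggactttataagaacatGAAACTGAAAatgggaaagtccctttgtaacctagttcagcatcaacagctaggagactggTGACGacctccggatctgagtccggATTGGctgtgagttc
The H2-K1 and H2-D1 stretches were identical at 108 of 120 positions (90.0%), whereas H2-M3 shared 49.2% with H2-K1 and 52.5% with H2-D1. B2m shared 38.3% to 42.5% of positions with the other three.

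The same windows were searched on both strands for further letters. An NF-kB type site, GGG and TTCCC with 2 bases of any kind between them, was found in H2-K1 and H2-D1 and in 1.75% of all windows. The interferon-response core, GAAA repeated after 2 bases of any kind, was found in B2m, H2-T23 and Erap1 and in 3.44% of all windows. H2-K1, H2-D1 and H2-M3 held only the shorter GAANNGAAA, chosen after the sequences had been seen and found in 7.52% of all windows. CCAAT, which includes the ATTGG of the pair above, was in 7 of the 8 windows and in 37.4% of all, and TGACG in 5 of 8 and in 20.8% of all. TTCNNNGAA, a gamma-interferon type site, was in H2-M3 and in 8.3% of all windows. H2-T23 and Erap1 lacked the TGACG and ATTGG pair but held the full interferon-response core, which is in capitals in the bases around it, shown for H2-T23 at chr17:36032806-36032835 on the minus strand and for Erap1 at chr13:74639839-74639868 on the plus strand.
H2-T23: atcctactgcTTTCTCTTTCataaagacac
Erap1: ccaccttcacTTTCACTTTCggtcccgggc
In Erap1 the match spanned the start of the window's transcript, inside the gene's outermost bounds, and in H2-T23 it lay at offsets -124 to -115. A match in letters is a description of the window and not a shown binding site.

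**Figure D1:**
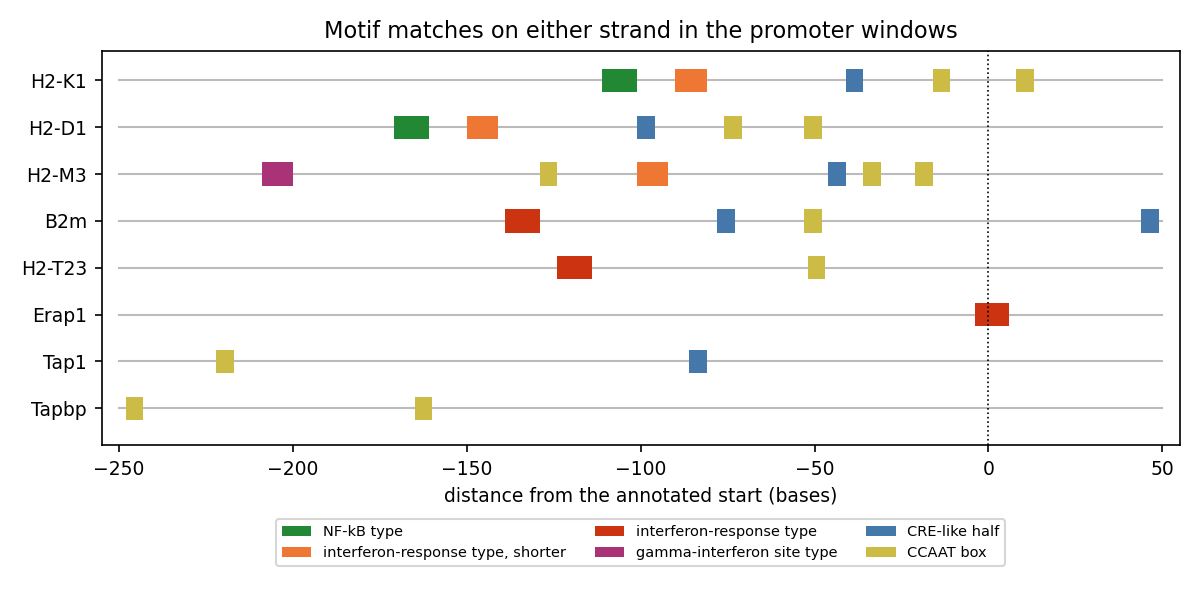
Matches to 6 motifs on either strand (coloured bars, drawn to scale) in the promoter windows of 8 class I genes, by distance in bases from the annotated start, dotted. H2-K1 and H2-D1 hold the same order of NF-kB type, shorter interferon-response type, CRE-like and CCAAT matches, and a CRE-like match and a CCAAT box stand at the same spacing in H2-M3 and B2m.

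Per gene length, the class I genes covered a wide range. The authors' deposited log2 RPKM values (reads relative to gene length and library total), taken back to the linear scale, put B2m at 8445 to 12111 RPKM over the 4 libraries, the rank 5 gene of the table. H2-T23, H2-D1 and H2-K1 followed with overlapping ranges of 2031 to 2453, 1625 to 2398 and 1876 to 2195 RPKM, and their order among themselves was not the same in the 2 groups. In both BFP-negative libraries H2-D1 was the lowest of these 3, and in both BFP-positive libraries it was the highest. Tapbp lay apart below them at 793 to 891 RPKM. H2-M3 (298 to 384 RPKM) and Tap1 (251 to 327 RPKM) overlapped, H2-M3 being above Tap1 in both BFP-negative libraries and below it in both BFP-positive ones. Tap2 was at 144 to 179 RPKM, Erap1 at 11.5 to 15.5 RPKM and Nlrc5 at 2.14 to 5.58 RPKM, each apart from its neighbours. The 10 genes together took 2.07% and 2.18% of the counts of N1 and N2 and 2.45% and 2.37% of those of P1 and P2.

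**Figure D2:**
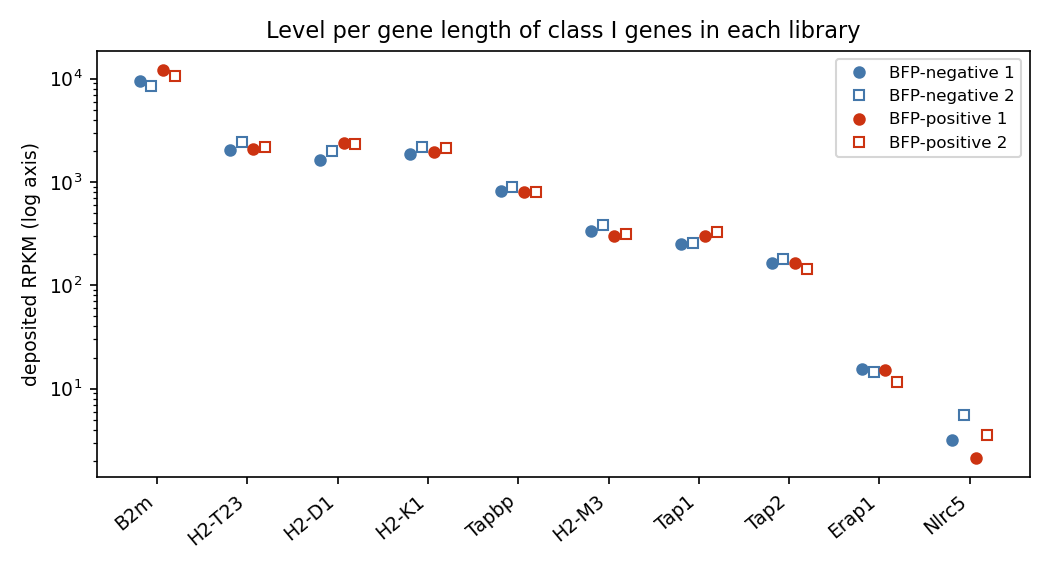
Deposited RPKM (log axis) of the 10 class I genes in each of the 4 libraries, in order of their mean. B2m stands above all others at 8445 to 12111 RPKM, the 3 abundant heavy chains overlap, and Nlrc5 is lowest at 2.14 to 5.58 RPKM.

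The comparison of BFP-positive with BFP-negative cells asked how the class I pathway differed between stimulated pDCs that had and had not switched on the Cxcl10 reporter. Of the 10 genes, 2 rose in BFP-positive cells, H2-D1 and B2m, by 1.36-fold and 1.33-fold, 0 fell and 8 did not pass the test. At an unadjusted p below 0.05 edgeR had 3 of them higher and 0 lower, as had DESeq2 and limma-voom after adjustment. The test was edgeR's quasi-likelihood test over all 11706 genes with enough counts, with Benjamini-Hochberg adjustment and an adjusted p below 0.05. The background share of genes called was 7.6% higher and 3.51% lower. The median log2 fold change of the 10 genes was -0.02, the same to this precision as the -0.02 of all genes tested, and single genes ran from -0.56 to 0.45. The groups did not overlap in 3 genes with BFP-positive higher (H2-D1, B2m and Tap1) and in 1 with BFP-positive lower (H2-M3), against 27.1% of all genes tested in the upward and 27.1% in the downward direction. In RNA from sorted populations in bulk, fewer cells of a type and less RNA per cell cannot be told apart. The levels that follow are TMM-scaled CPM, in the order N1, N2, P1 and P2.

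**Figure D3:**
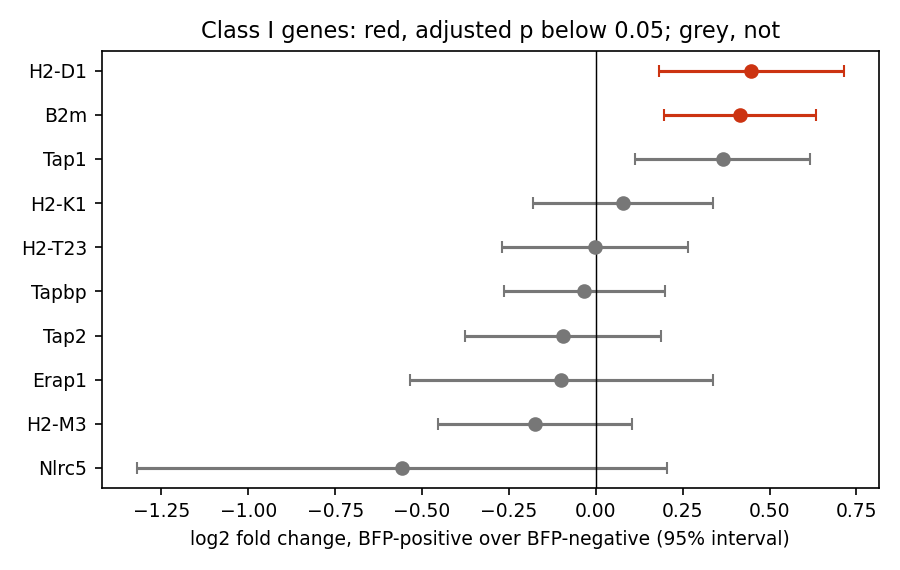
Log2 fold change of the 10 class I genes, BFP-positive over BFP-negative, with its 95% interval from edgeR; red marks an adjusted p below 0.05. H2-D1 (0.45) and B2m (0.42) passed, and the intervals of 7 of the other genes include 0, Tap1 (0.36) being the exception.

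H2-D1 (Entrez gene 14964, chromosome 17, 35263094 to 35267497 on GRCm38, the build of all positions here), a classical heavy chain that presents peptides to CD8 T cells, was at 2724 and 3417 CPM in the BFP-negative and 4240 and 4131 CPM in the BFP-positive libraries. Both BFP-positive libraries lay above both BFP-negative ones. Its log2 fold change was 0.45 (SE 0.12, 95% interval 0.18 to 0.71, edgeR adjusted p = 0.0392). The call was lost without N1 (adjusted p = 0.107), P1 (0.139) or P2 (0.103), with library totals alone (0.0517), with robust dispersion (0.0506) and with limma on the deposited values (0.109). Without N1 its log2 fold change was 0.30, and without N2 it was 0.64.

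H2-K1 (Entrez gene 14972, chromosome 17, 33996012 to 34000619), the other classical heavy chain of this strain, was at 2982 and 3582 CPM in N1 and N2 and 3286 and 3639 CPM in P1 and P2. The groups overlapped, and the log2 fold change of 0.08 (SE 0.12, 95% interval -0.18 to 0.34, edgeR adjusted p = 0.749) did not pass. H2-T23 (Entrez gene 15040, chromosome 17, 36029977 to 36032701), the nonclassical Qa-1 heavy chain known to be read by inhibitory receptors of NK cells, was at 2583 and 3203 against 2797 and 2982 CPM. Its groups overlapped too, with a log2 fold change that rounds to 0.00 (95% interval -0.27 to 0.27), or 0.830-fold to 1.20-fold. H2-M3 (Entrez gene 14991, chromosome 17, 37270234 to 37274485), a nonclassical heavy chain that presents formylated peptides, was at 465 and 543 against 433 and 460 CPM. Both of its BFP-positive libraries lay below both BFP-negative ones, but by little, and the log2 fold change of -0.18 (95% interval -0.45 to 0.10, edgeR adjusted p = 0.445) did not pass.

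Within libraries, the heavy chains stood in different proportions in the 2 groups. The ratio of H2-D1 to H2-K1, in RPKM, was 0.866 and 0.905 in the BFP-negative and 1.22 and 1.08 in the BFP-positive libraries. H2-D1 over H2-T23 was 0.800 and 0.809 against 1.15 and 1.05. In both ratios the groups were apart, and since each is taken within a library they do not depend on the scaling between libraries. An exact permutation test of 2 against 2 libraries cannot give a p below 0.33, so none is given.

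Reads of the class I heavy chains can be shared with other class I genes, which bears on these ratios. In the GENCODE protein-coding transcripts of H2-D1, 13.9% of all distinct 50-base windows also occurred in a transcript of another gene, H2-Q1 and H2-K1 most often. The share was 6.87% for H2-K1, 28.8% for H2-T23 and 0.576% for H2-M3. With windows of 100 bases it was 4.09% for H2-D1, 0.0% for H2-K1 and 7.28% for H2-T23. The sources used here do not give how reads that match several places were counted, so the levels of H2-D1, H2-K1 and H2-T23 are uncertain to that extent. B2m shared 0.0% of its windows at either length.

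B2m (Entrez gene 12010, chromosome 2, 122147687 to 122153082) encodes the light chain that pairs with the class I heavy chains above. It was at 7868 and 7183 CPM in N1 and N2 and 10584 and 9484 CPM in P1 and P2. The groups did not overlap. The log2 fold change was 0.42 (SE 0.10, 95% interval 0.20 to 0.63, edgeR adjusted p = 0.0234). The call was lost without P1 (0.33, adjusted p = 0.217) and with limma on the deposited log2 RPKM values (0.35, adjusted p = 0.137). Relative to B2m, the heavy chains differed. H2-D1 over B2m, in RPKM, was 0.171 and 0.235 in BFP-negative and 0.198 and 0.215 in BFP-positive libraries, with overlap. H2-T23 over B2m was 0.214 and 0.290 against 0.172 and 0.205, and H2-M3 over B2m was 0.0356 and 0.0455 against 0.0246 and 0.0292, both lower in each BFP-positive library. H2-K1 over B2m was 0.198 and 0.260 against 0.162 and 0.200 and overlapped.

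**Figure D4:**
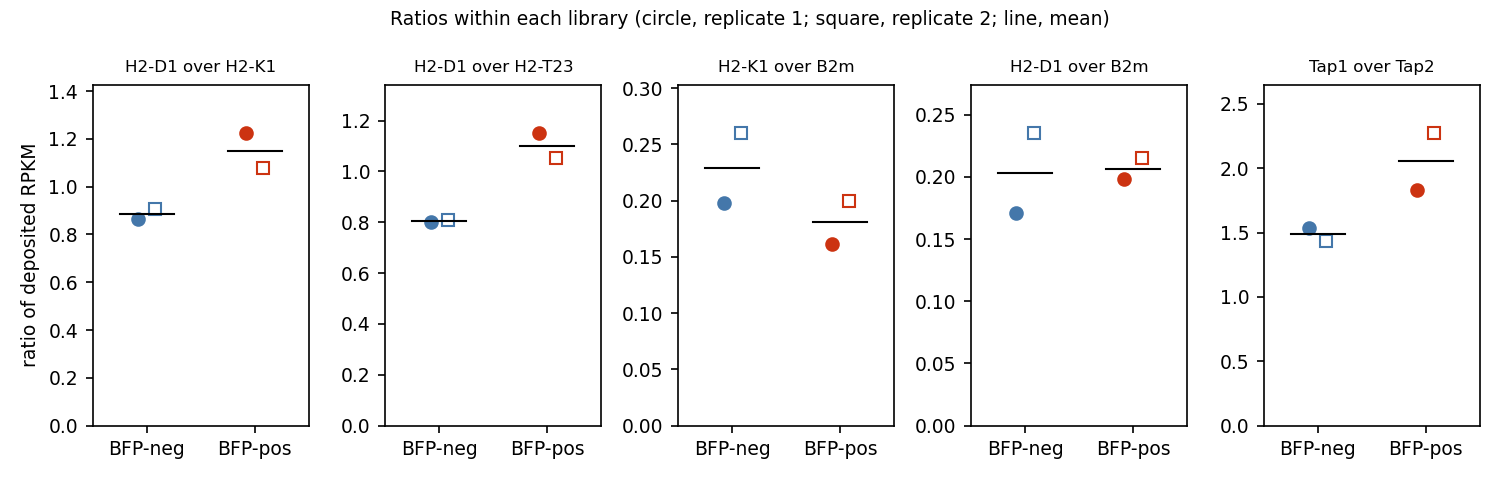
Ratios of deposited RPKM within each library, with circles for replicate 1, squares for replicate 2 and a line for the mean of the 2 libraries. H2-D1 over H2-K1, H2-D1 over H2-T23 and Tap1 over Tap2 are higher in both BFP-positive libraries, while H2-K1 over B2m and H2-D1 over B2m overlap between the groups; H2-T23 and H2-M3 over B2m, which were apart, are not drawn.

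The peptide transporter is made of the subunits TAP1 and TAP2. Tap1 (Entrez gene 21354, chromosome 17, 34187556 to 34197225) was at 716 and 752 CPM in N1 and N2 and 899 and 992 CPM in P1 and P2, with no overlap. Its log2 fold change of 0.36 (SE 0.11, 95% interval 0.11 to 0.62) did not pass at an edgeR adjusted p of 0.0681, but it passed in DESeq2 (adjusted p = 0.0136) and in limma-voom (adjusted p = 0.0442). Tap2 (Entrez gene 21355, chromosome 17, 34204479 to 34216321) was at 393 and 442 against 413 and 368 CPM. The groups overlapped and the log2 fold change was -0.09 (95% interval -0.38 to 0.19, edgeR adjusted p = 0.714). The ratio of Tap1 to Tap2, in RPKM, was 1.54 and 1.44 in the BFP-negative and 1.84 and 2.27 in the BFP-positive libraries, so the subunits' transcripts were less even in BFP-positive cells. Tap1 shares 212 of its 5476 exonic bases with Psmb9 on the opposite strand, and the SMART-Seq libraries do not mark strand, so reads there cannot be told apart. Tap2 shares 698 of 3781 exonic bases with predicted genes on the opposite strand.

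Tapbp (Entrez gene 21356, chromosome 17, 33919478 to 33929290), which encodes tapasin, the bridge between TAP and empty class I molecules, was at 2180 and 2430 CPM in N1 and N2 and 2220 and 2286 CPM in P1 and P2. Its log2 fold change was -0.03 with an interval from -0.27 to 0.20, or 0.832-fold to 1.15-fold, and the groups overlapped. Of its 3628 exonic bases, 1053 are shared with Gm19412 and Zbtb22. Erap1 (Entrez gene 80898, chromosome 13, 74639573 to 74693205), the aminopeptidase that trims peptides in the endoplasmic reticulum, was at 60.2 and 57.6 against 62.5 and 47.5 CPM. The groups overlapped, with a log2 fold change of -0.10 (95% interval -0.53 to 0.34). Erap1 shares 834 of 7280 exonic bases with Cast on the opposite strand.

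Nlrc5 (Entrez gene 434341, chromosome 8, 94434335 to 94527272), the class I transactivator, was the least abundant of the 10, with 268 and 487 counts in BFP-negative and 176 and 311 counts in BFP-positive libraries. That is 21.5 and 38.4 against 15.1 and 25.6 CPM. The replicates of each group differed widely and the groups overlapped, and the log2 fold change of -0.56 (SE 0.34, 95% interval -1.32 to 0.21, edgeR adjusted p = 0.365) did not pass. Leaving out single libraries moved it from -0.99 without P2 to -0.06 without N2. Between same-numbered libraries, P1 lay below N1 and P2 below N2. With the replicate number added to the fit, the log2 fold change was -0.55 (edgeR unadjusted p = 0.03565, adjusted p = 0.1385), which did not pass either. Whether same-numbered libraries are paired is not known.

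Other class I and class I-like heavy chains were followed as a list of 20, of which 18 were in the table and 16 were tested. The number that rose was 3 and the number that fell 0, against 7.6% and 3.51% of all genes tested. The median log2 fold change was 0.02 by edgeR. The 3 that rose are class I-like genes with roles outside classical presentation. Fcgrt, the heavy chain of the neonatal Fc receptor that recycles IgG, was at 76.7 ± 18.2 and 315 ± 9.24 CPM, a log2 fold change of 2.04 (SE 0.17, edgeR adjusted p = 7.17e-05). Hfe, which takes part in iron sensing, had 14 and 30 counts in N1 and N2 and 191 and 335 in P1 and P2, a log2 fold change of 3.65 (SE 0.48, edgeR adjusted p = 0.000925) that ran from 3.21 without N1 to 4.29 without N2. Cd1d1, which presents lipids to NKT cells, had 8 and 3 counts in BFP-negative and 87 and 108 counts in BFP-positive libraries (log2 fold change 4.19, SE 0.71, edgeR adjusted p = 0.00431; 5.06 without N1 and 3.67 without N2). The summed levels of conventional dendritic cell and of monocyte markers were also higher in the BFP-positive libraries, as given above. The part of such cells in these 3 values was not tested.

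Within the same list, the nonclassical heavy chains of the Q and T regions gave no call. H2-Q6 had levels of 152 ± 28.8 and 101 ± 12.5 CPM (a log2 fold change of -0.59, SE 0.18, edgeR adjusted p = 0.0571) and H2-Q7 had 860 ± 118 and 652 ± 35.1 CPM (-0.40, SE 0.13, edgeR adjusted p = 0.0760). In each, both BFP-positive libraries lay below both BFP-negative ones, as in 27.1% of all genes tested. DESeq2 called both lower (adjusted p = 0.0192 and 0.0282), whereas without N2 their log2 fold changes were -0.37 and -0.23 (edgeR adjusted p = 0.279 and 0.349). At an unadjusted p below 0.05, edgeR had 3 genes of this list lower. The third, singled out after its values were seen, was Mr1, which presents vitamin B metabolites to MAIT cells, with 97 and 48 counts in N1 and N2 and 5 and 21 in P1 and P2 (-2.41, SE 0.80, edgeR adjusted p = 0.0858). H2-Q4 (log2 fold change -0.12) and H2-T22 (-0.11) did not pass. The H2-Q and H2-T genes belong to a multigene family of similar sequence, so their values are uncertain. Of the distinct 50-base windows of H2-D1, 123 also occurred in H2-Q7 and 111 in H2-Q6. The windows of this list's own genes and the reads they may share were not measured here.

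**Figure D5:**
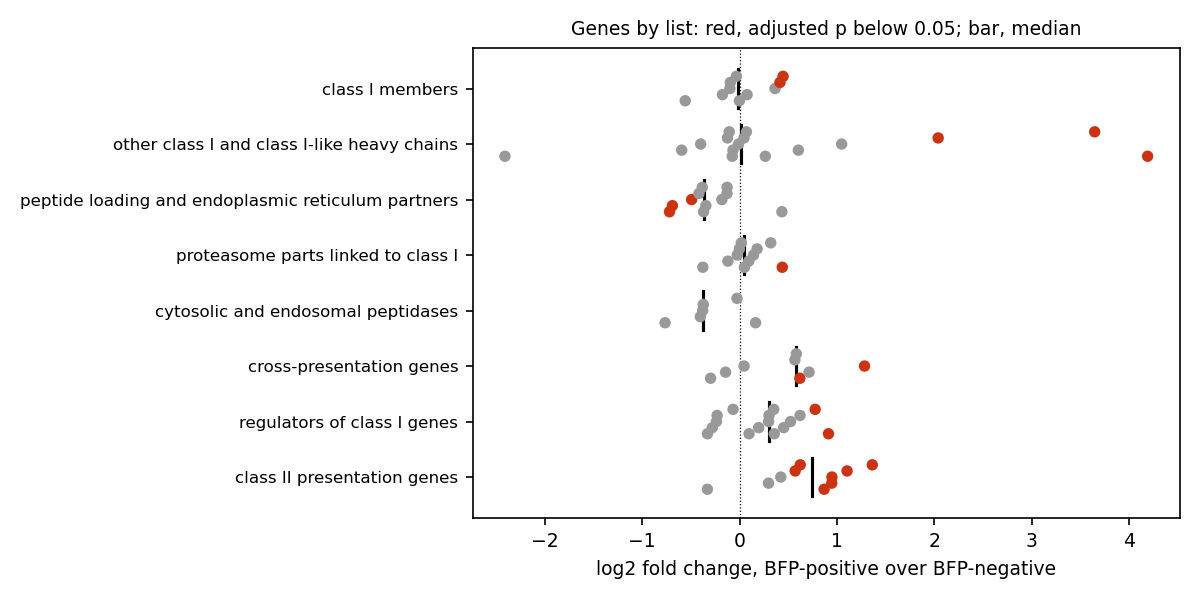
Log2 fold change, BFP-positive over BFP-negative, of each tested gene in the class I list, 6 lists of pathway genes and the class II list; red points have an adjusted p below 0.05 and black bars are medians. The class I median is -0.02, that of the peptide-loading and endoplasmic reticulum list -0.37 and that of the class II list 0.75.

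Partners of peptide loading in the endoplasmic reticulum lay on the lower side. Of 11 tested, 3 fell and 0 rose, against 3.51% of all genes tested called lower and 7.6% called higher. The log2 fold change was below 0 in 10 of the 11, and in 6065 of all 11706 genes tested. The list's median was -0.37. Pdia3, the oxidoreductase of the peptide-loading complex, fell from 1233 ± 72.8 to 765 ± 49.0 CPM (log2 fold change -0.69, SE 0.11, edgeR adjusted p = 0.00366). Hspa5, the general chaperone BiP, fell from 1591 ± 137 to 967 ± 116 CPM (-0.72, SE 0.12, edgeR adjusted p = 0.00473). Uggt1, a folding sensor for glycoproteins, was called at an edgeR adjusted p of 0.0474 (-0.49, SE 0.14), a call lost with RLE factors (adjusted p = 0.0547), with no filter (0.0535), with limma on the deposited values (0.108) and without any 1 of the 4 libraries (adjusted p = 0.0597, 0.170, 0.175 and 0.239 without N1, N2, P1 and P2). Hspa5 and Uggt1 serve protein folding at large and not class I alone. Canx and Calr, the lectin chaperones calnexin and calreticulin, did not pass, at 701 ± 5.63 against 538 ± 36.0 and 744 ± 33.1 against 585 ± 84.0 CPM (edgeR adjusted p = 0.0603 and 0.124), while DESeq2 called Canx (adjusted p = 0.0173). Tapbpl, which encodes the tapasin-related editor TAPBPR, was the only member of this list above 0, at 79.8 ± 2.32 and 108 ± 3.96 CPM (log2 fold change 0.43, edgeR adjusted p = 0.104).

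Proteasome genes linked to class I gave a single call. Of 11 tested, 1 rose and 0 fell, against 7.6% and 3.51% of all genes tested. The list's median log2 fold change was 0.05. The member that rose was Psmb10, an immunoproteasome catalytic subunit, from 387 ± 32.8 to 524 ± 14.0 CPM (log2 fold change 0.44, SE 0.12, edgeR adjusted p = 0.0437). Its call was lost without N1 (adjusted p = 0.147), P1 (0.217) or P2 (0.151), with library totals alone (0.0669) and with limma on the deposited values (0.0838). Psmb9, another immunoproteasome subunit, was at 1222 ± 53.6 and 1525 ± 1.81 CPM (0.32, SE 0.10, edgeR adjusted p = 0.0804), and DESeq2 called it (adjusted p = 0.0229). Psmb8 was abundant in both groups at 4289 ± 478 and 4735 ± 116 CPM (0.14, edgeR adjusted p = 0.466). The proteasome activator genes Psme1 and Psme2 had log2 fold changes of 0.00 and 0.02, with intervals from -0.25 to 0.25 and from -0.26 to 0.30. Psme3, a nuclear proteasome activator, was at 246 ± 12.7 and 190 ± 9.88 CPM (-0.38, edgeR adjusted p = 0.0981).

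Cytosolic and endosomal peptidases gave 0 calls of 6 tested in edgeR, with a median of -0.38. Of all genes tested, 7.6% were called higher and 3.51% lower. Thop1, which degrades peptides in the cytosol, had the smallest p (47.2 ± 0.951 and 27.8 ± 9.85 CPM, log2 fold change -0.76, edgeR adjusted p = 0.0898) and was called without P1 (-1.18, adjusted p = 0.0141) but was at -0.44 without P2. Lap3, Tpp2 and Lnpep trim peptides in the cytosol or in endosomes. Their log2 fold changes were -0.37, -0.38 and -0.40 (edgeR adjusted p = 0.221, 0.302 and 0.364). For each of them, the BFP-positive libraries both lay below the BFP-negative ones, as in 27.1% of all genes tested. Lap3 was at -0.23 without N1 and Lnpep at -0.19 without N2. Of 8 tested genes linked to cross-presentation, 2 rose and 0 fell, against the same shares of all genes, with a median of 0.58. Rab43, a small GTPase linked to cross-presentation in conventional dendritic cells, rose 2.43-fold from 47.8 ± 1.62 to 116 ± 7.32 CPM (edgeR adjusted p = 0.00078). Snap23, a membrane fusion protein, had a log2 fold change of 0.62 (SE 0.16, edgeR adjusted p = 0.0301). The Snap23 call was lost without N2, P1 or P2 (adjusted p = 0.0723, 0.171 and 0.0768), and with limma on the deposited values (0.0644). Cybb, the oxidase subunit that limits acidification of phagosomes, was at 558 ± 3.51 and 454 ± 31.3 CPM (-0.30, edgeR adjusted p = 0.145), and Rab27a at 25.6 ± 6.92 and 42.0 ± 13.7 CPM (0.71, edgeR adjusted p = 0.152). Rab27a was called without P1 (1.01, adjusted p = 0.0377) and without N2 (1.04, adjusted p = 0.0433), and its log2 fold change was 0.34 without P2. The conventional dendritic cell markers were mixed. Itgax (log2 fold change 0.83), Zbtb46 (2.56), Flt3 (0.98) and Naaa (1.01) were called higher and Cadm1 (-1.06) lower. Xcr1, Clec9a and Batf3 did not pass (edgeR adjusted p = 0.0695, 0.249 and 0.207). The part of such cells in the Rab43 value was not tested.

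Regulators known to act on class I promoters were called in 2 of 16 cases, both higher. Of all genes tested, 7.6% were called higher and 3.51% lower. The list's median log2 fold change was 0.30. Irf1, the interferon regulatory factor that binds interferon-response elements, rose from 99.2 ± 5.78 to 187 ± 2.09 CPM (log2 fold change 0.91, SE 0.14, edgeR adjusted p = 0.00266). Nfkb1, which encodes the p50 subunit of NF-kB, rose from 101 ± 6.43 to 172 ± 30.1 CPM (0.78, SE 0.16, edgeR adjusted p = 0.0133), a call lost without P2 (adjusted p = 0.120) and with limma on the deposited values (0.0532). Rfx5 and Rfxank, subunits of the X-box factor RFX, had log2 fold changes of 0.45 and 0.52 and did not pass (edgeR adjusted p = 0.634 and 0.138). Rfx5 was at 6.67 and 5.99 CPM in N1 and N2 and 5.24 and 12.1 CPM in P1 and P2, with overlap, and its log2 fold change was 0.93 without P1 and -0.27 without P2. Irf9, a part of the interferon-activated factor ISGF3, was at 274 ± 8.02 and 337 ± 14.3 CPM (0.30, edgeR adjusted p = 0.159).

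Beside class I, 7 of 10 MHC class II presentation genes rose and 0 fell by the same edgeR test. The shares of all genes tested were 7.6% and 3.51%. The median log2 fold change was 0.75 against -0.02 for class I. H2-Eb1, the beta chain of the I-E molecule, went from 1333 ± 86.7 to 3428 ± 92.0 CPM and had a log2 fold change of 1.36 with an interval from 1.13 to 1.60, which lies above the whole interval of each of the 10 class I genes. H2-Ab1, the beta chain of I-A, had 0.95 with an interval from 0.65 to 1.25, which overlaps the upper end of the H2-D1 interval. H2-Aa, the alpha chain of I-A, and Cd74, the invariant chain, had log2 fold changes of 0.87 and 1.10 (edgeR adjusted p = 0.000379 and 0.000561). Ciita, the class II transactivator related to Nlrc5, did not pass at 122 ± 15.7 and 96.9 ± 21.7 CPM (-0.33, edgeR adjusted p = 0.324). H2-Oa, H2-Ob and H2-DMa, which steer peptide exchange on class II, were the others that rose (0.95, 0.62 and 0.57), and with 1 library left out 5 to 8 of the list were called. Conventional dendritic cell markers summed to more in the BFP-positive libraries, though Cadm1 of that list was called lower. The part of such cells in these values was not tested. The class II genes were part of results of these data known beforehand, and the difference between the lists was not tested as such.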

How the data were processed

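RNA was sequenced from 2 BFP-positive and 2 BFP-negative libraries made with a SMART-Seq kit, per the labels' protocols. The authors deposited whole-number counts per Entrez gene, without normalization, and log2 RPKM values per library, corrected for gene length and library total. Subread, featureCounts and limma with GRCm38 and mm10 are named, per the submitters' processing notes; versions, strand setting and the treatment of multi-mapped reads are not given in the sources used here. Genes passing filterByExpr (minimum count 10, total 15; 11706 of 27179) were fitted in edgeR 4.0.16 (R 4.3.3) with TMM scaling (factors 0.973 to 1.04), fitting the group alone (2 residual degrees of freedom; biological coefficient of variation 24.7%). Tests were two-sided, adjusted by Benjamini-Hochberg across the tested genes. SE is the log2 fold change divided by the square root of F. Deposited RPKM was taken from log2 to linear for levels between genes and for ratios, which were first planned on counts. Floors and intervals cover counting error or library spread only. Replicates were separate libraries by their counts (chi-square per degree of freedom 19.6 and 15.3). Alternatives were DESeq2 1.42.0, limma 3.58.1 (voom, and on deposited log2 RPKM), RLE factors, library totals, no filter, robust dispersion, a replicate block and leaving out each library. The script was tested on simulated data. Named genes were the 10 members, the 4 genes with the smallest p of each pathway list and a fixed set of genes with class I roles. Some of these genes and of the marker genes are not reported here. A planned comparison of proteins was not analysed here. Members and lists were chosen with earlier results of these data known.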

Additional observations from a re-analysis of the deposited data

How the results depend on the processing

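Of the 51 named genes refitted under each alternative, the 20 called ones kept their direction throughout. Among the 31 not called, 9 changed sign when single libraries were left out, namely H2-K1 (-0.04 to 0.24), H2-T23 (-0.14 to 0.18), Tap2 (-0.18 to 0.01), Tapbp (-0.10 to 0.07), Erap1 (-0.31 to 0.09), H2-Q4, Psme1, Psme2 and Rfx5, and 22 moved by over 1.5 times. The number of the 10 class I genes called higher, 2, was 1 with library totals alone, 1 with robust dispersion and 0 with limma on the deposited log2 RPKM values, and 0 to 2 when 1 library was left out (0 without P1); 0 were lower in each of these. In all genes tested, 890 were called higher and 411 lower, with 559 to 921 and 245 to 408 when 1 library was left out (559 without P2, 245 without P1); scaling by library totals gave 813 and 574. Same-numbered libraries deviated together by r = 0.0594 across all genes tested, genes with few counts included. That value cannot settle whether they are paired, so the replicate block is given only as an alternative. With it, 1140 genes were called higher and 760 lower. Called lower were 6 loading partners, 2 other heavy chains, 1 proteasome gene, 1 peptidase and 1 cross-presentation gene. Called higher were 2 proteasome and 4 cross-presentation genes, and Tap1 passed (edgeR adjusted p = 0.00764). Other heavy chains called lower, 0, were 2 with library totals, 2 with DESeq2 and 1 with no filter, robust dispersion or limma-voom, and 0 to 2 when 1 library was left out. Loading partners called lower, 3, were 5 with library totals, DESeq2 or limma-voom, and 2 with RLE factors or no filter. Proteasome genes called higher, 1, were 0 with library totals or limma on the deposited values, 2 with DESeq2 or limma-voom, and 0 to 1 without 1 library. Peptidases called lower, 0, were 0 to 1 without 1 library. Cross-presentation genes called higher, 2, were 1 on the deposited values and 1 to 3 without 1 library, and regulators called higher, 2, were 1 and 1 to 2 in the same settings. The causes were not tested. Where edgeR called 0 genes of a list in a direction, an unadjusted p below 0.05 was reached by 1 loading partner higher and by 1 proteasome gene, 1 peptidase and 1 cross-presentation gene lower, and by 0 peptidases higher, 0 regulators lower and 0 class II genes lower; DESeq2 and limma-voom called 0 in each of these. The order of the 10 genes by level per length was the same in all 10 places with RPKM computed from the counts. The gene lengths used for this were derived from the deposited RPKM itself. The agreement was thus largely fixed in advance and is no check of the order. With 1 library left out, its group's lone library is assumed to vary like the other group's. Among the 10 class I genes, Nlrc5 had the fewest counts (176 to 487) and the widest interval.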
